A study of Mus musculus with 11 samples.

Results

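The genes described here are 10 members of the transforming growth factor-β (TGF-β) pathway, taken by symbol from the 32285 genes of the deposited tables: the ligands Tgfb1 and Tgfb2, the receptors Tgfbr1, Tgfbr2, Eng and Acvrl1, the signal carrier Smad3, the inhibitory Smads Smad6 and Smad7, and the target gene Id1. Each symbol was found in 1 row of the tables. Single-cell RNA sequencing (scRNA-seq) was performed on dissociated brain of 11 mice, 1 library per mouse. Wild-type (WT) mice received sham surgery (sham + WT group, 3 mice) or transient occlusion of the middle cerebral artery followed by reperfusion (MCAO/R + WT group, 2 mice), and mice lacking Lrg1 in every tissue received the same operations (sham + Lrg1-/- group, 3 mice, and MCAO/R + Lrg1-/- group, 3 mice). The wild-type animals were young adult male C57BL/6 mice. The knockout was a conventional germline deletion. The methods name its strain both as C57BL/6 J and as C57BL/6N, with a backcross to the N substrain, and give an age only with the backcross. The WT mice were obtained separately and their substrain was not given in the sources used here. Substrain and any difference in age cannot be told apart from genotype. The limitations of the study describe tissue as examined at 1 h, without saying whether this counts occlusion or reperfusion. Its methods list several reperfusion times, and infarct and edema were measured after the longest. The labels give no time. The red cells in each suspension were lysed before capture.

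TGF-β ligands are secreted in a latent form and signal through a complex of the type II receptor Tgfbr2 and a type I receptor, either Tgfbr1, which activates Smad2 and Smad3, or in endothelial cells Acvrl1 (ALK1), which activates Smad1, Smad5 and Smad9 and is helped by the co-receptor endoglin (Eng). Smad6 and Smad7 are induced by the pathway and block it, and the Id genes are transcribed in response to the Acvrl1 branch and to bone morphogenetic proteins (BMPs). LRG1, the protein missing from the knockout mice, is a secreted glycoprotein that binds endoglin and modulates TGF-β signaling in endothelial cells. In microglia, TGF-β made in the brain maintains the homeostatic state.

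Levels are unique molecular identifiers (UMIs) counted for a gene in a cell type of 1 mouse, scaled to counts per 1000000 UMIs of that type (CPM) after normalization between mice. Cell types are groups of clusters that resemble a type by its markers, and are written as endothelial-like cells, microglia-like cells and so on. Of the member genes, 10 had at least 1 cell type in which they passed the filter on low counts. The mouse is the replicate in every value. In the summed UMIs of a type, a changed level per cell and a changed mix of cell states cannot be told apart.

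The libraries held 37159497 to 171813031 UMIs, with medians of 3190 to 11504 UMIs per kept cell. Lrg1 had 192, 280 and 662 UMIs in the sham + WT libraries, 16233 and 17868 in the MCAO/R + WT libraries, and 0 in 5 of the 6 Lrg1-/- libraries, with 1 UMI in the other. No pair of libraries shared more than 1.15% of the barcodes of the smaller library. The Lrg1-/- libraries stood apart from the WT libraries in 2 groups of transcripts that belong to other cells. In endothelial-like cells, 4 hemoglobin genes summed to 400.9 to 1635 CPM in the 5 WT mice and to 16530 to 26740 CPM in the 6 Lrg1-/- mice, and in microglia-like cells to 15.6 to 21.9 CPM and 8785 to 30500 CPM. The choroid plexus genes Ttr, Enpp2, Kcnj13, Clic6 and Kl summed to 160.2 to 586.3 CPM in WT and 2387 to 4735 CPM in Lrg1-/- endothelial-like cells. No gene of either list was at 0 in any type. Genotype and these differences between suspensions cannot be told apart in this design, and their part in the differences between genotypes below was not tested. The selection of barcodes also differed: 4 of the Lrg1-/- libraries held round numbers of barcodes (5650, 8500, 9000 and 15500), each with at least 551 UMIs, while the remaining 7 libraries reached down to 500 UMIs. Some cells lay in clusters that were given no type name. These were 3120, 2079 and 1330 cells in sham + Lrg1-/- mice 1, 2 and 5, of 9468, 5669 and 3249 before doublet removal. In MCAO/R + Lrg1-/- mice 1, 2 and 5 they were 3853, 3154 and 16346, of 6438, 17914 and 34181. In sham + WT mice they were 2147, 468 and 519, of 13806, 9853 and 9448. In MCAO/R + WT mice they were 724 and 536, of 9948 and 12463. The share was higher in each Lrg1-/- library than in any WT library. Genotype and this selection cannot be told apart.

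The members differed in the cell type of their highest level among the 14 types with enough mice to test, as seen in the sham + WT mice. Among the ligands, Tgfb1, the main isoform of immune cells, was highest in cells resembling monocytes and monocyte-derived macrophages (371 ± 20.4 CPM, SD, n = 3) and microglia (353 ± 14.3), whose ranges overlapped, followed by border-associated macrophages (217 ± 3.73). Tgfb2 was highest in endothelial-like cells (296 ± 34.2 CPM), vascular smooth muscle-like cells (250 ± 63.6) and choroid plexus epithelium-like cells (198 ± 13.3), with overlapping ranges between neighbors in this order, and was at 4.96 CPM in microglia-like cells.

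Among the receptors, Eng and Acvrl1 were endothelial. Eng stood at 678 ± 56.3 CPM in endothelial-like cells and 173 ± 34.8 CPM in pericyte-like cells, and the ranges of these 2 types did not overlap. Acvrl1 stood at 384 ± 2.62 CPM in endothelial-like cells and at 63.6 CPM in the next type, neutrophil-like cells, of which only 1 sham + WT mouse had 20 or more. Tgfbr1 was highest in microglia-like cells, at 724 ± 25.1 CPM against 318 ± 40.0 CPM in monocyte-like cells. Tgfbr2 followed in the same place (519 ± 37.1 CPM), with border-associated macrophage-like (429 ± 43.6) and B cell-like cells (401 ± 105) next and endothelial-like cells at 257 ± 16.6 CPM. Microglia-like cells did not overlap with the next type for either receptor, whereas border-associated macrophage-like and B cell-like cells overlapped for Tgfbr2.

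Among the Smads, Smad3 led in the neutrophil-like cells of 1 mouse (247 CPM) and in microglia-like cells (171 ± 12.01 CPM). Smad6 was low everywhere and highest in fibroblast-like (66.3 ± 24.2 CPM) and endothelial-like cells (65.0 ± 0.713), whose ranges overlapped. Smad7 was highest in oligodendrocyte-like cells (436 ± 29.2 CPM), then in microglia-like (331 ± 13.8) and endothelial-like cells (235 ± 23.7), with no overlap between these 3 types. Id1 was highest in endothelial-like cells (1230 ± 101 CPM), ahead of choroid plexus epithelium-like (564 ± 45.9) and vascular smooth muscle-like cells (377 ± 37.3), again without overlap.

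**Figure D1:**
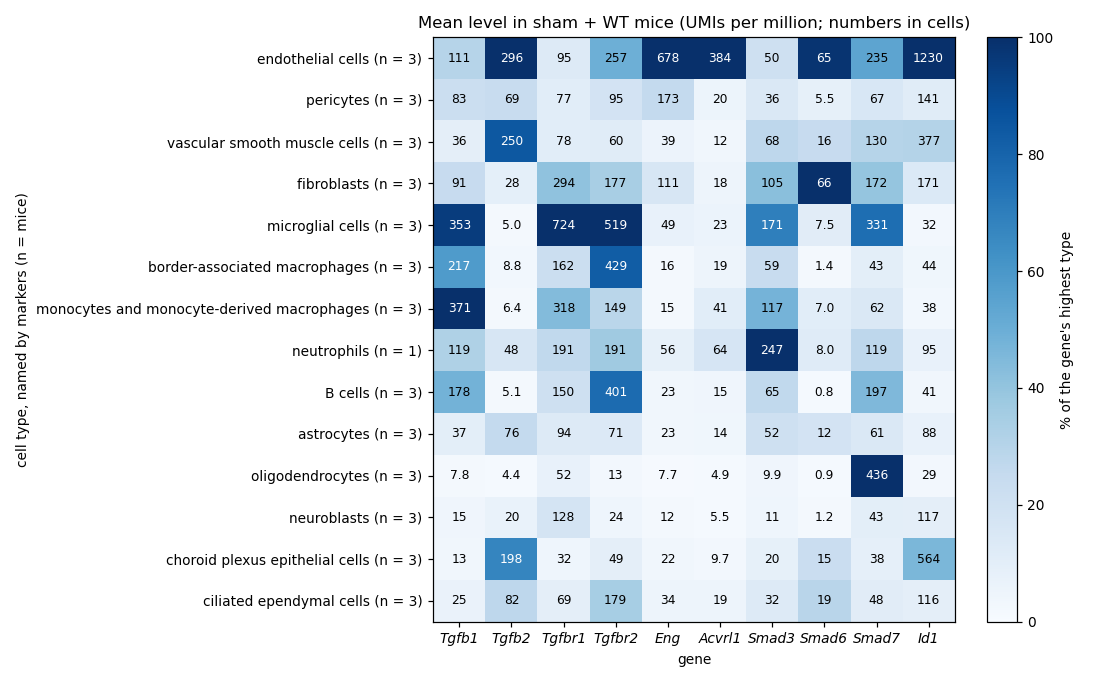
Mean level of each of the 10 genes (columns) in each cell type (rows) of the sham + WT mice, in CPM, printed in the cells; the color gives the percent of the gene's highest type. Eng and Acvrl1 peak in endothelial-like cells (678 and 384), Tgfbr1 and Tgfbr2 in microglia-like cells (724 and 519), and Smad7 in oligodendrocyte-like cells (436).

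Within the endothelial-like cells, 1 cluster carried the arterial markers and no other cluster was named for a vessel zone. In its cells of the 3 sham + WT mice, Tgfb2 stood at 681 ± 76.0 CPM against 226 ± 28.3 CPM in the remaining endothelial-like clusters, and Smad6 at 134 ± 19.6 against 52.3 ± 2.86 CPM (SD, n = 3, without normalization between mice). Neither gene had been used for the clustering. Smad3 lay the other way, at 22.5 ± 5.46 CPM in the arterial cluster against 55.4 ± 11.1 CPM in the rest.

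The pattern over the 14 types in the sham + WT mice was compared with that of every gene that reached 20 CPM in at least 1 type, as a Pearson correlation of log2 values over 14 points that share libraries and depth. The genes most like Tgfb2 were Emp2 (r = 0.92), Id1 (0.914) and Lama5, a laminin chain of basement membranes (0.913). Those most like Eng were Tmem204 (0.967), Ppfibp1 (0.938) and Emcn, an endothelial sialomucin (0.911), and those most like Acvrl1 were Arap3 (0.905), Edn1, which encodes endothelin (0.898), and Gm20631 (0.892). The pattern of Tgfbr2 was closest to Il4ra, an interleukin receptor chain (0.932), Ctsh (0.927) and Fli1 (0.917), that of Tgfb1 to Rab43 (0.977), Rap1b (0.963) and Ifngr1 (0.958), and that of Tgfbr1 to Bbc3, Lysmd4 and Rap2c (0.938, 0.938 and 0.932). Smad3 was closest to Prkcd, Rab27a and Ccrl2 (0.935, 0.933 and 0.93), Smad6 to Plpp1, Bambi and Cx3cl1 (0.863, 0.848 and 0.846), Smad7 to Traf5, Pdxdc1 and Gpr155 (0.816, 0.769 and 0.746), and Id1 to Abhd2 and Tgfb2 (0.932 and 0.914).

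Differences between groups were tested with edgeR on UMIs summed per mouse and type, and a gene was called when its Benjamini-Hochberg adjusted p over all genes of the type was under 0.05 and its fold change exceeded 0.25 on the natural-log scale. Log2 fold changes are given ± SE. Over all types tested, 3 member results were called higher and 13 lower in MCAO/R + WT against sham + WT among 107 tested, where 9.65% of all genes were called (5.03% higher, 4.61% lower). In MCAO/R + Lrg1-/- against sham + Lrg1-/-, 2 were called higher and 16 lower of 106, beside 12.2% of all genes (6.68% higher, 5.57% lower). Between genotypes, 11 were called higher and 6 lower of 106 after sham (11.2% of all genes called, 5.57% higher and 5.60% lower) and 6 higher and 13 lower of 107 after MCAO/R (16.1%, 8.39% higher and 7.75% lower). The excess of higher calls after sham turned without 1 of 4 mice, to 3 higher and 5 lower without sham + Lrg1-/- mouse 5 and to 4 and 6, 3 and 4, and 4 and 5 without sham + WT mouse 1, 2 and 3. Between genotypes after MCAO/R, the excess of lower calls turned to 17 higher and 12 lower without the count filter. It also turned without MCAO/R + WT mouse 1, which left 1 mouse in that group. The test of whether the effect of MCAO/R differed between genotypes called 2 of 89, both in endothelial-like cells, beside 2.32% of all genes (1.30% higher, 1.02% lower). The pairs of comparisons share groups of mice, so their values are not independent.

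**Figure D2:**
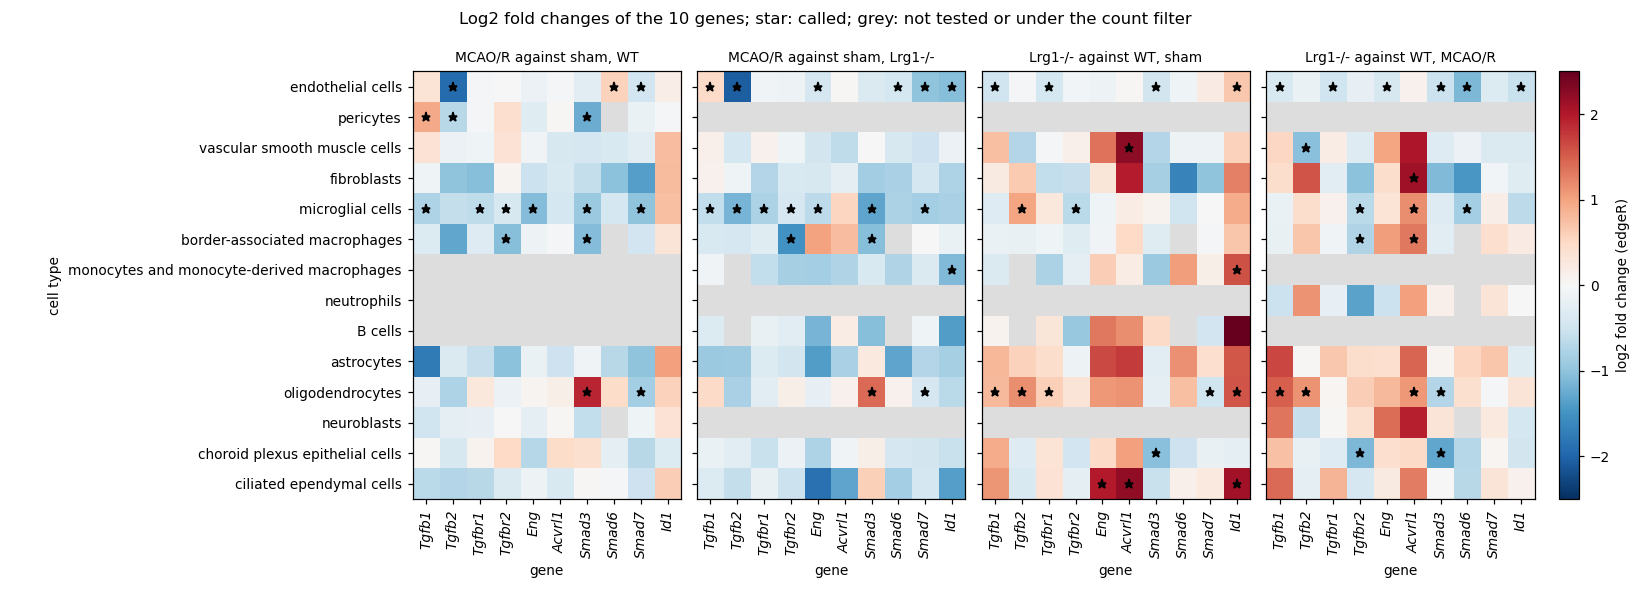
Log2 fold change (color) of each gene (columns) in each cell type (rows) in 4 comparisons (panels); stars mark called results and grey marks types not tested or genes under the count filter. In microglia-like cells 6 of the 10 genes were called lower after MCAO/R in WT and 7 in Lrg1-/- mice, and in endothelial-like cells Tgfb2 had log2 fold changes of -1.93 and -2.06.

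In endothelial-like cells (305 to 2692 cells per mouse), the ligand Tgfb2 fell about 4-fold after MCAO/R in both genotypes, and Acvrl1 was called in no comparison. Tgfb2 stood at 276, 277 and 336 CPM in the sham + WT mice and at 69.1 and 86.4 CPM in the MCAO/R + WT mice. It stood at 305, 298 and 260 CPM in the sham + Lrg1-/- mice and at 92.5, 50.2 and 67.2 CPM in the MCAO/R + Lrg1-/- mice. Every mouse after MCAO/R lay below every sham-operated mouse. The log2 fold change was -1.93 ± 0.21 in WT (3.81-fold lower, edgeR adjusted p = 4.83e-05) and -2.06 ± 0.19 in Lrg1-/- mice (4.17-fold lower, adjusted p = 5.28e-05), and both calls were kept with each library left out in turn (log2 -2.31 to -1.79). The genotypes differed by -0.17 ± 0.20 after MCAO/R and -0.04 ± 0.18 after sham, which was not called. With the arterial cluster left out, sham + WT mice had 204, 215 and 258 CPM and MCAO/R + WT mice 66.3 and 85.7 CPM. These values were not normalized between mice. In the fit without that cluster, Tgfb2 was still called lower (-1.54 ± 0.20 in WT and -1.91 ± 0.18 in Lrg1-/- mice).

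Tgfb1, the other ligand, moved less. It measured 127, 101 and 104 CPM in sham + WT mice, 145 and 137 in MCAO/R + WT mice, 74.3, 78.1 and 81.7 in sham + Lrg1-/- mice, and 110, 108 and 108 in MCAO/R + Lrg1-/- mice. It was thus lower in Lrg1-/- than in WT mice after the same operation, with no overlap (log2 -0.51 ± 0.10, edgeR adjusted p = 0.00394 after sham, and -0.38 ± 0.11, adjusted p = 0.0177 after MCAO/R). The second of these calls was lost without either MCAO/R + WT mouse (log2 -0.43 to -0.32 over the left-out libraries). Tgfb1 rose after MCAO/R in Lrg1-/- mice (0.47 ± 0.10, adjusted p = 0.00484). In WT mice it differed by 0.35 ± 0.10 (adjusted p = 0.0305), below the fold limit.

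Of the receptors in endothelial-like cells, Acvrl1 was the most even. It lay between 355 and 419 CPM in all 11 mice, the groups overlapped, and its log2 differences ran from -0.05 ± 0.10 to 0.12 ± 0.10. Eng measured 634, 659 and 741 CPM in sham + WT mice, 609 and 614 in MCAO/R + WT mice, 532, 642 and 698 in sham + Lrg1-/- mice, and 451, 526 and 418 in MCAO/R + Lrg1-/- mice. The MCAO/R + Lrg1-/- mice were lowest, below their sham controls (-0.42 ± 0.12, edgeR adjusted p = 0.0265) and below MCAO/R + WT mice (-0.39 ± 0.14, adjusted p = 0.0469). The first call was lost without sham + Lrg1-/- mouse 2 or 5 or MCAO/R + Lrg1-/- mouse 5 (log2 -0.52 to -0.32), and the second was kept only without MCAO/R + Lrg1-/- mouse 2 (log2 -0.49 to -0.32).

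Tgfbr1 was lower in Lrg1-/- mice whatever the operation. It measured 103, 91.4 and 91.4 CPM in sham + WT mice and 100 and 85.0 in MCAO/R + WT mice, against 66.4, 72.4 and 70.7 in sham + Lrg1-/- mice and 63.9, 64.7 and 68.2 in MCAO/R + Lrg1-/- mice. The difference was -0.45 ± 0.09 after sham (edgeR adjusted p = 0.00533) and -0.50 ± 0.10 after MCAO/R (adjusted p = 0.00317), the latter lost without MCAO/R + WT mouse 1 (log2 -0.36). Tgfbr2 lay between 204 and 273 CPM in the 11 mice and was called in no comparison.

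In endothelial-like cells, the difference between the responses of the genotypes was called for Smad6 and Id1 and for no other member. Smad6, which blocks the BMP and Acvrl1 branch, measured 65.0, 65.8 and 64.3 CPM in sham + WT mice and 104 and 88.2 in MCAO/R + WT mice. It measured 50.9, 67.0 and 62.9 CPM in sham + Lrg1-/- mice and 45.8, 51.1 and 34.4 in MCAO/R + Lrg1-/- mice. Both MCAO/R + WT mice lay above all other mice. Smad6 rose after MCAO/R in WT mice (0.57 ± 0.15, edgeR adjusted p = 0.0151) and was called lower in Lrg1-/- mice (-0.44 ± 0.14, adjusted p = 0.0414), where the groups overlapped. It was 2.17-fold lower in MCAO/R + Lrg1-/- than in MCAO/R + WT mice (-1.12 ± 0.15, adjusted p = 2.81e-04). The last call was kept with each library left out. The rise in WT mice was lost without sham + WT mouse 3 or MCAO/R + WT mouse 1 (log2 0.43 to 0.68), and the decrease without sham + Lrg1-/- mouse 2 or 5 or MCAO/R + Lrg1-/- mouse 1 or 5 (log2 -0.58 to -0.30). The difference between the 2 responses was -1.01 ± 0.20 (adjusted p = 0.0232). It was lost without sham + Lrg1-/- mouse 2 or 5, any sham + WT mouse or MCAO/R + WT mouse 1 (log2 -1.15 to -0.86). With the arterial cluster left out, an alternative chosen after seeing the data, the decrease in Lrg1-/- mice was not called (-0.29 ± 0.14, edgeR adjusted p = 0.165). The rise in WT mice was then 0.88 ± 0.15 (adjusted p = 9.48e-04) and the difference between the responses -1.17 ± 0.20 (adjusted p = 0.0113).

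Id1, a helix-loop-helix protein that holds back differentiation, measured 1153, 1192 and 1344 CPM in sham + WT mice and 1345 and 1403 in MCAO/R + WT mice. It measured 1913, 1947 and 2042 CPM in sham + Lrg1-/- mice and 665, 1119 and 1019 in MCAO/R + Lrg1-/- mice. The sham + Lrg1-/- mice were the highest of all and the MCAO/R + Lrg1-/- mice the lowest. Id1 was thus 1.60-fold higher in Lrg1-/- than in WT mice after sham (0.68 ± 0.16, edgeR adjusted p = 0.0117), 2.10-fold lower after MCAO/R than after sham in Lrg1-/- mice (-1.07 ± 0.16, adjusted p = 7.81e-04) and lower than in MCAO/R + WT mice (-0.56 ± 0.18, adjusted p = 0.0325). In WT mice the change of 0.16 ± 0.18 was not called. The difference between the responses was -1.23 ± 0.24 (adjusted p = 0.0182). The fall in Lrg1-/- mice was kept with each library left out. The difference after sham was lost without sham + WT mouse 1 (log2 0.63 to 0.75), that after MCAO/R without MCAO/R + Lrg1-/- mouse 1 or either MCAO/R + WT mouse (log2 -0.70 to -0.36), and the difference between responses without sham + WT mouse 1 or 2 or MCAO/R + WT mouse 2 (log2 -1.39 to -1.03).

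Smad7, which blocks Tgfbr1, fell after MCAO/R in both genotypes. It measured 220, 262 and 223 CPM in sham + WT mice and 152 and 186 in MCAO/R + WT mice (-0.48 ± 0.13, edgeR adjusted p = 0.0185), and 258, 288 and 263 CPM in sham + Lrg1-/- mice and 120, 149 and 133 in MCAO/R + Lrg1-/- mice (-1.01 ± 0.12, adjusted p = 1.80e-04). The WT call was lost without sham + WT mouse 2 or MCAO/R + WT mouse 1 (log2 -0.63 to -0.35). The 2 falls differed by -0.53 ± 0.17, which was not called (adjusted p = 0.125). Smad3 was lower in Lrg1-/- mice after sham (37.0 against 50.2 CPM, -0.45 ± 0.14, adjusted p = 0.0435) and after MCAO/R (28.7 against 41.9 CPM, -0.54 ± 0.16, adjusted p = 0.0214). The sham call held only without sham + WT mouse 1 (log2 -0.58 to -0.30), and the other was lost without MCAO/R + Lrg1-/- mouse 1 or either MCAO/R + WT mouse (log2 -0.60 to -0.46).

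**Figure D3:**
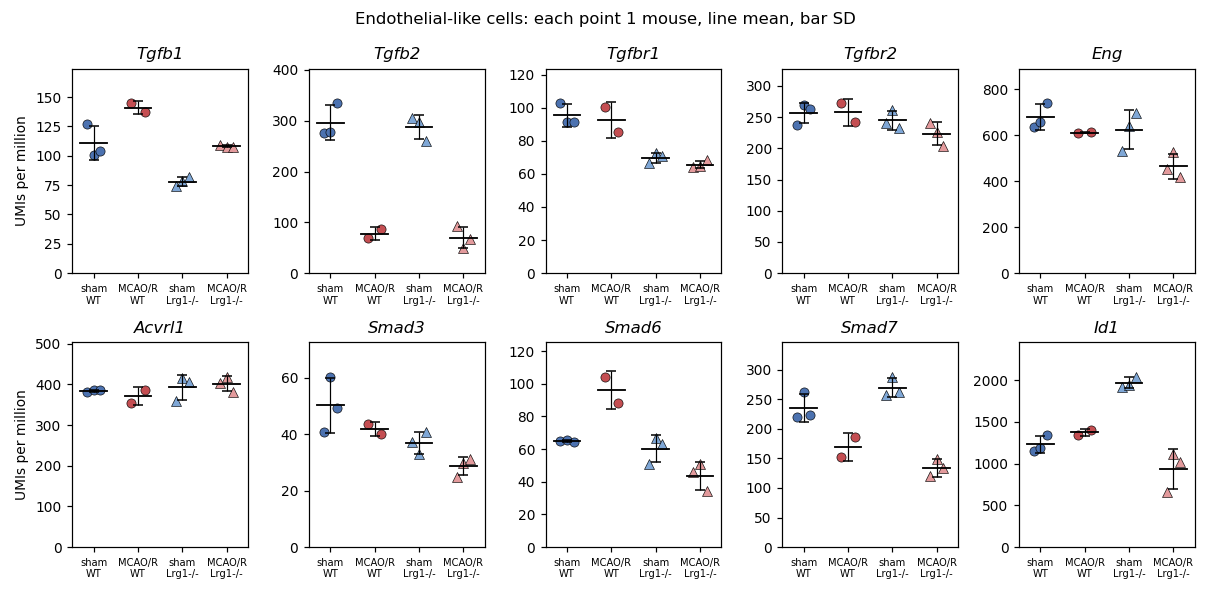
Levels of the 10 genes in endothelial-like cells, in CPM on axes that start at 0; each point is 1 mouse (circles WT, triangles Lrg1-/-), lines are group means and bars SD. Tgfb2 falls after MCAO/R in both genotypes, Smad6 is highest in the 2 MCAO/R + WT mice (104 and 88.2), and Id1 is highest in the 3 sham + Lrg1-/- mice (1913 to 2042).

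Other features of the endothelial-like cells differed between the same groups. Of 10 members, 3 were called after MCAO/R in WT mice (20.6% of all genes called), 6 in Lrg1-/- mice (20.9%), 4 between genotypes after sham (16.0%) and 6 after MCAO/R (26.0%), and the interaction called 2 of 10 (2.89%). The clusters that made up the type differed: cluster 1.0 held 64.1% of the sham + WT and 38.0% of the sham + Lrg1-/- cells and 1.45% and 0.88% of the MCAO/R + Lrg1-/- and MCAO/R + WT cells, cluster 1.1 held 67.2% of the MCAO/R + Lrg1-/- and 38.0% of the MCAO/R + WT cells, and cluster 1.3 held 36.0% of the MCAO/R + WT and 6.3% of the MCAO/R + Lrg1-/- cells. The arterial cluster, 1.4, held 8.91% of the sham + WT and 5.7% of the sham + Lrg1-/- cells. After MCAO/R it held 0.132% of the WT and 0.341% of the Lrg1-/- cells. Immediate early genes, which also rise during dissociation, summed to 40590 to 43800 CPM in sham + WT, 31960 to 34480 in MCAO/R + WT, 38070 to 40970 in sham + Lrg1-/- and 21880 to 23600 CPM in MCAO/R + Lrg1-/- mice. Of 12 microglial genes, 10 were called higher in MCAO/R + Lrg1-/- than in MCAO/R + WT endothelial-like cells. Beyond the fits that left out clusters, the part of these features in the results was not tested.

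The 250 bases before the start of Tgfb2 and of Smad6 are shown because Tgfb2 was the endothelial member that fell most and Smad6 one of the 2 whose response differed between genotypes. RefSeq promoter windows on GRCm38.p6 were found for 7 of the 10 members, and those of Acvrl1, Smad7 and Id1 were not analysed here. On GRCm38, Tgfb2 lies at chr1:186622792-186705989 and Smad6 at chr9:63953076-64022059, both on the minus strand. The windows were searched on both strands for CAGAC, the Smad box, for GTCTAGAC, a palindromic Smad-binding sequence, and for GGCGCC, a GC-rich element bound by BMP Smads. CAGAC was found in 42.2% of all 32851 windows, GTCTAGAC in 0.167% and GGCGCC in 9.59%. Capitals mark CAGAC or its reverse complement, and the sequences run 5′ to 3′ on the strand of the gene.
Tgfb2, chr1:186705990-186706239: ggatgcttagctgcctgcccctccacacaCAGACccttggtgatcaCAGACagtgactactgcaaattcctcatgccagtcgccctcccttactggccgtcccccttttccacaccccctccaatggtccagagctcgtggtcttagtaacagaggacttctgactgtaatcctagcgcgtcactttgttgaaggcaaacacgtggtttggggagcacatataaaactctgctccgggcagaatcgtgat
Smad6, chr9:64022060-64022309: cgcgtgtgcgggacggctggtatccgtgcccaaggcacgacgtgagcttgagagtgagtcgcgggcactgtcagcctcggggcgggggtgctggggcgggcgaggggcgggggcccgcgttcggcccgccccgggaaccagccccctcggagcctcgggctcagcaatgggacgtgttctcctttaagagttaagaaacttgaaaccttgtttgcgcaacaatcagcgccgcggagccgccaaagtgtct
The Tgfb2 window held CAGAC 2 times and neither of the other motifs, and the Smad6 window held none of the 3. The GC content was 53.6% in the Tgfb2 window and 66.8% in the Smad6 window.

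In microglia-like cells (264 to 4610 cells per mouse), Tgfbr1, Tgfbr2, Eng, Smad3, Smad7 and Tgfb1 fell after MCAO/R in both genotypes. Acvrl1 was called in neither (-0.44 ± 0.28 in WT and 0.54 ± 0.26 in Lrg1-/- mice). Of 10 members, 6 were called lower and 0 higher in WT mice, where 21.8% of all genes were called and 9.83% called lower, and 7 lower and 0 higher in Lrg1-/- mice, where 36.3% were called and 14.9% called lower. The median log2 fold change of the 10 members was -0.62 in WT and -0.79 in Lrg1-/- mice, beside 0.05 and 0.04 over all genes tested.

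Tgfb1, the ligand that microglia make, measured 350, 368 and 340 CPM in sham + WT mice and 202 and 214 in MCAO/R + WT mice (-0.76 ± 0.12, edgeR adjusted p = 7.46e-04). It measured 297, 271 and 278 CPM in sham + Lrg1-/- mice and 179, 169 and 207 in MCAO/R + Lrg1-/- mice (-0.61 ± 0.11, adjusted p = 8.31e-04). Sham and MCAO/R mice did not overlap in either genotype. Tgfb2 was low in these cells, at 4.2 to 5.4 CPM in sham + WT and 8.8 to 10.8 CPM in sham + Lrg1-/- mice (0.99 ± 0.20, adjusted p = 0.00325), and at 4.1 to 4.9 CPM in MCAO/R + Lrg1-/- mice (-1.15 ± 0.20 against sham, adjusted p = 7.07e-04). The choroid plexus genes, from a type with more Tgfb2, summed in microglia-like cells to 320.2 to 590.9 CPM in sham + WT, 3024 to 3491 in sham + Lrg1-/- and 2269 to 3519 CPM in MCAO/R + Lrg1-/- mice. Their part in the Tgfb2 calls was not tested.

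Tgfbr1 measured 708, 753 and 711 CPM in sham + WT and 430 and 499 in MCAO/R + WT mice (-0.64 ± 0.14, edgeR adjusted p = 0.00534), and 859, 900 and 857 in sham + Lrg1-/- and 574, 430 and 509 in MCAO/R + Lrg1-/- mice (-0.79 ± 0.12, adjusted p = 3.21e-04). Tgfbr2 differed both by operation and by genotype. It measured 476, 539 and 542 CPM in sham + WT, 352 and 429 in MCAO/R + WT, 321, 340 and 315 in sham + Lrg1-/-, and 248, 246 and 238 in MCAO/R + Lrg1-/- mice. All 6 Lrg1-/- mice lay below all 5 WT mice. The difference between genotypes was -0.67 ± 0.11 after sham (1.59-fold lower, adjusted p = 0.00107) and -0.68 ± 0.12 after MCAO/R (1.60-fold lower, adjusted p = 0.00221), and both were called with each library left out and under every other setting tried. The fall after MCAO/R was -0.41 ± 0.13 in WT (adjusted p = 0.0316) and -0.42 ± 0.11 in Lrg1-/- mice (adjusted p = 0.0103). The WT calls of Tgfbr1 and Tgfbr2 were lost without MCAO/R + WT mouse 1 (log2 -0.53 and -0.27), and that of Tgfbr2 also without sham + WT mouse 2 or 3 (log2 -0.60 to -0.27). Over all 17 alternative fits, left-out libraries included, the WT call of Tgfbr2 was kept in 10.

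Eng, which is low in these cells, measured 45.3, 49.6 and 53.4 CPM in sham + WT and 28.0 and 18.3 in MCAO/R + WT mice (-1.09 ± 0.21, edgeR adjusted p = 0.00217), and 45.8 CPM on average in sham + Lrg1-/- and 29.2 in MCAO/R + Lrg1-/- mice (-0.65 ± 0.19, adjusted p = 0.0170, lost without MCAO/R + Lrg1-/- mouse 5, log2 -0.48). Acvrl1 was 2.25-fold higher in MCAO/R + Lrg1-/- than in MCAO/R + WT mice (28.2, 52.9 and 33.6 against 22.9 and 11.5 CPM, 1.17 ± 0.28, adjusted p = 0.0114). This call was lost without MCAO/R + WT mouse 2 (log2 0.72). The endothelial genes Cldn5, Flt1, Cdh5, Pecam1 and Kdr summed to 68.7 to 249.8 CPM in the microglia-like cells of MCAO/R + Lrg1-/- mice and 137.7 to 195.8 CPM in those of MCAO/R + WT mice.

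Smad3, which carries the signal of Tgfbr1, measured 158, 182 and 174 CPM in sham + WT and 85.4 and 95.2 in MCAO/R + WT mice (1.90-fold lower, -0.92 ± 0.13, edgeR adjusted p = 2.32e-04). It measured 185, 194 and 163 CPM in sham + Lrg1-/- and 73.8, 67.3 and 75.7 in MCAO/R + Lrg1-/- mice (2.51-fold lower, -1.33 ± 0.12, adjusted p = 1.55e-05). Smad7 measured 318, 346 and 328 CPM in sham + WT and 172 and 158 in MCAO/R + WT mice (2.01-fold lower, edgeR adjusted p = 3.78e-04), and 367, 346 and 291 in sham + Lrg1-/- and 184, 214 and 159 in MCAO/R + Lrg1-/- mice (-0.85 ± 0.13, adjusted p = 2.88e-04). In both genes the sham and MCAO/R mice of a genotype did not overlap, and the 4 calls were kept with each library left out. Smad6, at 2.2 to 8.6 CPM over all mice, was lower in MCAO/R + Lrg1-/- than in MCAO/R + WT mice (-0.84 ± 0.28, adjusted p = 0.0492), and this call was kept only without MCAO/R + Lrg1-/- mouse 2 (log2 -1.22 to -0.60). Id1 was called in no comparison of microglia-like cells, with 28.1 to 38.9 CPM in sham + WT and 45.6 and 63.5 CPM in MCAO/R + WT mice, and 51.3, 76.4 and 55.7 in sham + Lrg1-/- and 20.6, 59.5 and 21.8 CPM in MCAO/R + Lrg1-/- mice. The interaction called 0 of the 10 members by edgeR (9.48% of all genes called), with 3 at an unadjusted p under 0.05 and 1 called by DESeq2.

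**Figure D4:**
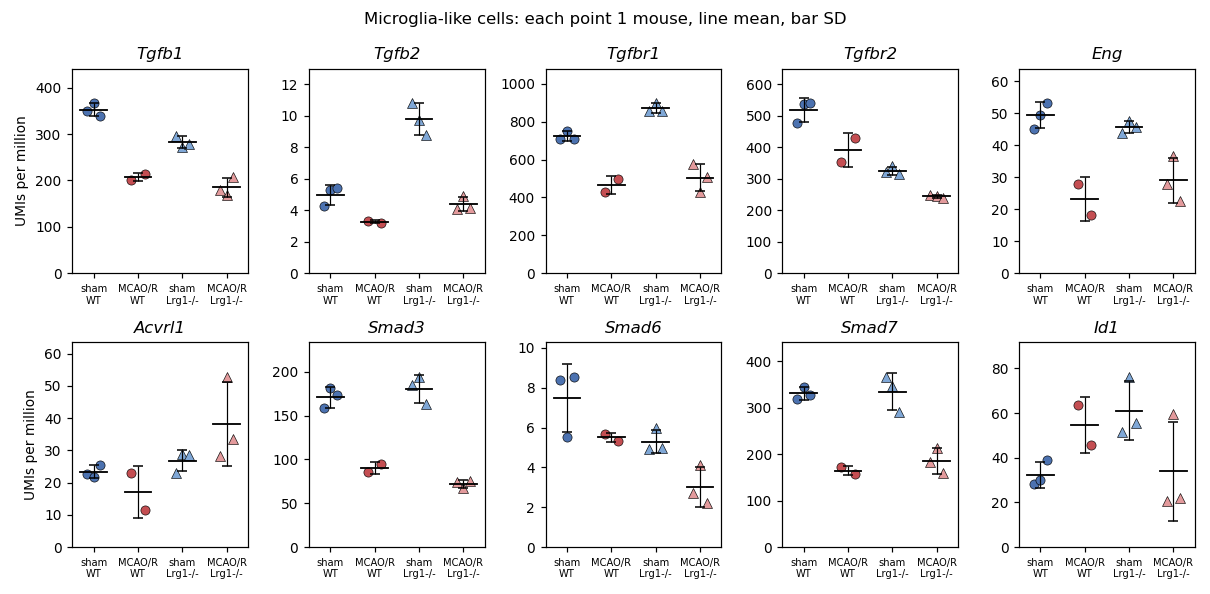
Levels of the 10 genes in microglia-like cells, in CPM on axes that start at 0; each point is 1 mouse (circles WT, triangles Lrg1-/-), lines are group means and bars SD. Tgfb1, Tgfbr1, Smad3 and Smad7 are lower after MCAO/R in both genotypes, and Tgfbr2 is lower in all 6 Lrg1-/- mice than in all 5 WT mice.

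The microglia-like cells also differed in state between groups. Clusters 3.0 and 3.1 held 44.9% and 38.3% of the sham + WT cells, 46.8% and 6.5% of the sham + Lrg1-/- cells, and at most 4.21% of the cells of an MCAO/R group each. Clusters 2.0 and 2.1 held 51.7% and 42.7% of the MCAO/R + Lrg1-/- cells and 28.9% and 28.2% of the MCAO/R + WT cells, and cluster 2.2 held 36.0% of the MCAO/R + WT and 3.3% of the MCAO/R + Lrg1-/- cells. Immediate early genes summed to 39700 to 47150 CPM in the 5 WT mice and 13630 to 24490 CPM in the 6 Lrg1-/- mice. Between genotypes, 2 of 10 members were called after sham (23.1% of all genes called) and 3 of 10 after MCAO/R (20.8%).

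A list of 12 genes whose expression in microglia depends on TGF-β was followed in the same cells. P2ry12, Olfml3, Fcrls and Gpr34 of this list were also among the markers that named the microglia-like clusters. Cells low in these markers could be left outside the type, so the counts are not independent of the naming. Cluster 0.2, with 5286 cells and microglia as its closest type, was left unnamed. After MCAO/R, 11 of the 12 were called lower in WT mice (median log2 -1.58, beside 9.83% of all genes called lower), and 7 lower and 1 higher in Lrg1-/- mice (median -0.69, beside 14.9% of all genes called lower and 36.3% called in all). The purinergic receptor P2ry12 measured 1465, 1414 and 1507 CPM in sham + WT, 222 and 226 in MCAO/R + WT, 908, 876 and 1091 in sham + Lrg1-/-, and 317, 177 and 284 CPM in MCAO/R + Lrg1-/- mice. Olfml3 measured 669 to 787 CPM in sham + WT mice, 109 and 65.2 in MCAO/R + WT mice, and 435 to 564 CPM in all 6 Lrg1-/- mice. Between genotypes, where 23.1% of all genes were called after sham and 20.8% after MCAO/R, 6 of the 12 were called lower in Lrg1-/- mice after sham (Fcrls at -1.02 ± 0.26 and Gpr34 at -0.78 ± 0.16, for example) and 8 higher after MCAO/R (Olfml3 at 2.46 ± 0.21 and Slc2a5, a fructose transporter, at 2.02 ± 0.23). The test of the difference between the 2 responses called 7 of the 12, beside 9.48% of all genes, each with a positive difference of Lrg1-/- from WT mice. Skil, which encodes a repressor that binds Smads, measured 1260 to 1404 CPM in sham + WT and 337 to 404 CPM in MCAO/R + Lrg1-/- mice, and was called lower in Lrg1-/- mice after sham (-0.89 ± 0.14) and after MCAO/R (-1.29 ± 0.15).

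Oligodendrocyte-like cells (112 to 3203 cells per mouse) showed the opposite direction for Smad3. It measured 8.5, 10.03 and 11.1 CPM in sham + WT and 31.3 and 42.7 in MCAO/R + WT mice (3.76-fold higher, 1.91 ± 0.18, edgeR adjusted p = 2.89e-06), and 8.8, 7.3 and 9.1 in sham + Lrg1-/- and 18.1, 26.0 and 21.8 in MCAO/R + Lrg1-/- mice (2.65-fold higher, 1.41 ± 0.23, adjusted p = 0.00121). All mice after MCAO/R lay above all sham-operated mice, and both calls were kept with each library left out. The clusters that made up the type also differed: clusters 4.2, 4.3 and 4.1 held 39.9%, 38.1% and 4.84% of the sham + WT and 0.912%, 0.22% and 86.7% of the MCAO/R + WT cells. In Lrg1-/- mice the same clusters held 36.3%, 25.6% and 3.46% after sham and 2.88%, 1.01% and 24.5% after MCAO/R. The part of this shift in the Smad3 and Smad7 results was not tested. Smad3 was lower in MCAO/R + Lrg1-/- than in MCAO/R + WT mice (-0.73 ± 0.18, adjusted p = 0.00735), a call lost without MCAO/R + WT mouse 2 (log2 -0.50). Smad7 measured 451, 455 and 402 CPM in sham + WT, 260 and 225 in MCAO/R + WT, 309, 318 and 303 in sham + Lrg1-/-, and 253, 227 and 220 in MCAO/R + Lrg1-/- mice. It fell after MCAO/R in WT (-0.85 ± 0.11, adjusted p = 8.40e-05) and in Lrg1-/- mice (-0.41 ± 0.10, adjusted p = 0.0164, lost without sham + Lrg1-/- mouse 1 or 2 or MCAO/R + Lrg1-/- mouse 5, log2 -0.47 to -0.37), and was lower in Lrg1-/- than in WT mice after sham (-0.49 ± 0.10, adjusted p = 0.00910). Of 10 members, 2 were called after MCAO/R in WT (25.1% of all genes) and 2 in Lrg1-/- mice (14.9%).

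Between genotypes, 5 of 10 members were called in oligodendrocyte-like cells after sham (10.8% of all genes) and 4 after MCAO/R (28.8%). Id1 measured 29.2, 28.9 and 30.3 CPM in sham + WT and 65.2, 122 and 76.9 CPM in sham + Lrg1-/- mice (2.96-fold higher, 1.57 ± 0.29, edgeR adjusted p = 0.00463). Tgfb1 measured 7.0 and 6.6 CPM in MCAO/R + WT and 14.6, 18.8 and 22.7 CPM in MCAO/R + Lrg1-/- mice (1.49 ± 0.23, adjusted p = 5.18e-04). Both calls were kept with each library left out. After sham, Tgfb1 (0.82 ± 0.24), Tgfb2 (1.16 ± 0.31) and Tgfbr1 (0.60 ± 0.14) were also called higher in Lrg1-/- mice, the first and second losing the call without any 1 of the 6 mice (log2 0.65 to 0.93 and 1.10 to 1.22) and the third without sham + Lrg1-/- mouse 2 or 5 or sham + WT mouse 2 or 3 (log2 0.53 to 0.69). After MCAO/R, Acvrl1 (1.08 ± 0.36) and Tgfb2 (1.11 ± 0.32) were called higher at means of 11.3 and 6.19 CPM, the first lost without MCAO/R + Lrg1-/- mouse 2 or either MCAO/R + WT mouse (log2 0.44 to 1.44) and the second without MCAO/R + WT mouse 2 (log2 0.91). Transcripts of other cells moved in the same cells: P2ry12 measured 30.1 to 45.2 CPM in sham + WT and 53.7 to 107 CPM in sham + Lrg1-/- mice, and of 12 microglial genes 8 were called higher in Lrg1-/- mice after sham and 11 after MCAO/R. The 5 endothelial genes named above summed to 132.3 to 153.1 CPM in sham + WT and 202.9 to 329.1 CPM in sham + Lrg1-/- mice. The choroid plexus genes, from a type with more Tgfb2, summed to 1941 to 2281 CPM in sham + WT and 4825 to 8078 CPM in sham + Lrg1-/- mice. Their sums after MCAO/R were 815.2 to 823.8 CPM in WT and 4142 to 5701 CPM in Lrg1-/- mice. Immediate early genes summed to 3015 to 3698 CPM in sham + WT and 6091 to 8644 CPM in sham + Lrg1-/- mice. After MCAO/R they summed to 4388 to 5224 CPM in WT and 4683 to 7579 CPM in Lrg1-/- mice. Cluster 4.0 held 7.63% of the sham + WT and 29.2% of the sham + Lrg1-/- cells, and after MCAO/R 9.5% and 70.1%. The part of these in the differences was not tested.

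**Figure D5:**
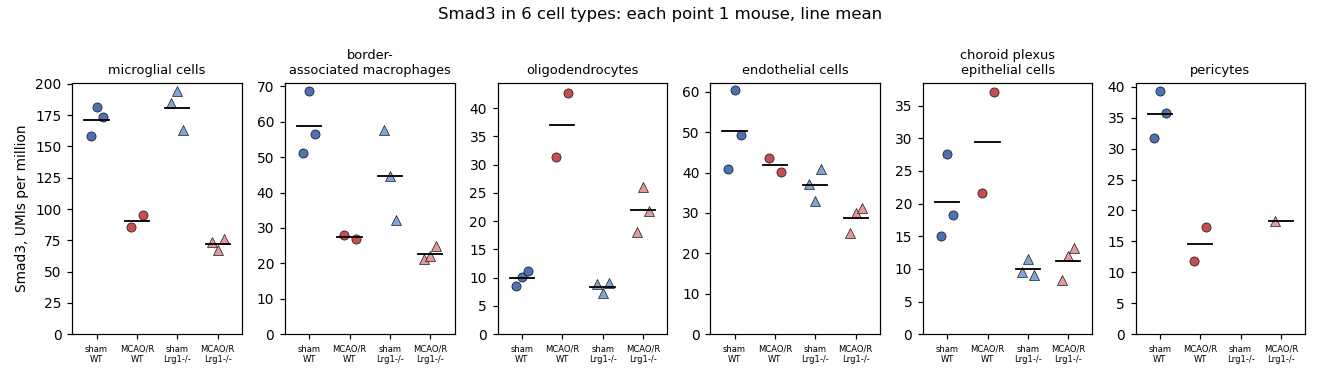
Smad3 in 6 cell types, in CPM on axes that start at 0; each point is 1 mouse (circles WT, triangles Lrg1-/-) and lines are group means. After MCAO/R it is lower in microglia-like cells (158 to 182 against 85.4 and 95.2 in WT) and higher in oligodendrocyte-like cells (8.5 to 11.1 against 31.3 and 42.7 in WT).

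Among the remaining myeloid types, border-associated macrophage-like cells lost Tgfbr2 and Smad3 after MCAO/R in both genotypes, the only members called there in either comparison (9.49% of all genes called in WT, 25.8% in Lrg1-/- mice). Tgfbr2 measured 386, 474 and 428 CPM in sham + WT and 192 and 220 in MCAO/R + WT mice (-1.06 ± 0.19, edgeR adjusted p = 0.00187), and 344, 353 and 350 in sham + Lrg1-/- and 148, 118 and 102 in MCAO/R + Lrg1-/- mice (2.87-fold lower, -1.52 ± 0.17, adjusted p = 7.14e-05). Smad3 measured 51.3, 68.6 and 56.6 CPM in sham + WT and 28.1 and 26.9 in MCAO/R + WT mice (-1.09 ± 0.23, adjusted p = 0.00652), with -1.07 ± 0.24 in Lrg1-/- mice (adjusted p = 0.00499, lost without sham + Lrg1-/- mouse 1, log2 -1.18 to -0.83). After MCAO/R, Tgfbr2 was lower (-0.75 ± 0.19, adjusted p = 0.00680) and Acvrl1 higher (1.32 ± 0.34, adjusted p = 0.00970) in Lrg1-/- than in WT mice, where 29.5% of all genes were called, and both calls were lost without MCAO/R + WT mouse 2 (log2 -0.88 to -0.64 and 1.03 to 1.86). Cluster 0.4 held 70.8% of the MCAO/R + Lrg1-/- border-associated macrophage-like cells and 20.03% to 34.6% of those of the other groups. Immediate early genes summed to 44690 to 52300 CPM in sham + WT, 37670 to 48360 in MCAO/R + WT, 21030 to 28510 in sham + Lrg1-/- and 11480 to 13670 CPM in MCAO/R + Lrg1-/- mice. This cluster was led by Spp1, Lpl, Cd72 and Ccl9, with the border-associated macrophage markers Pf4 and Cbr2 among its top 10 genes and no marker of another type, and shared Spp1, Lpl, Cd72, Ms4a6d and Ccl12 with a cluster that was left unnamed and scored closest to microglia. Its name is therefore less sure than that of the remaining clusters, which were led by Mrc1. Without it, Tgfbr2 (-1.02 ± 0.17 in WT and -1.48 ± 0.20 in Lrg1-/- mice) and Smad3 (-1.09 ± 0.22 and -1.14 ± 0.28) were still called lower after MCAO/R, as was Tgfbr2 between genotypes (-0.71 ± 0.19), and the Acvrl1 call was lost (0.76 ± 0.33, edgeR adjusted p = 0.152). The part of the immediate early genes was not tested. In monocyte-like cells Id1 was higher in sham + Lrg1-/- than in sham + WT mice (127 and 100 against 43.2, 30.6 and 41.1 CPM, 1.58 ± 0.33, adjusted p = 0.0428) and lower after MCAO/R in Lrg1-/- mice (-1.10 ± 0.30, adjusted p = 0.0388). The first call was kept only without sham + Lrg1-/- mouse 2, which had too few such cells to enter the fit (log2 1.38 to 1.78), and the second was lost without sham + Lrg1-/- mouse 1 or 5 or MCAO/R + Lrg1-/- mouse 5 (log2 -1.45 to -0.86). In these 2 comparisons 1.61% and 8.46% of all genes were called. The endothelial genes summed to 198.9 to 227.8 CPM in sham + WT, 329.7 to 380.7 in sham + Lrg1-/- and 91.1 to 275.9 CPM in MCAO/R + Lrg1-/- monocyte-like cells. The choroid plexus genes summed to 263.8 to 465.9, 7490 to 8183 and 2513 to 7556 CPM in the same groups. Their part in the Id1 calls was not tested.

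Of the mural and barrier types, pericyte-like cells had enough mice only for the WT comparison, in which 7.89% of all genes were called. Smad3 fell (31.7, 39.3 and 35.8 against 11.8 and 17.3 CPM, -1.25 ± 0.25, edgeR adjusted p = 0.00233), Tgfb2 fell (64.2, 61.8 and 82.3 against 46.0 and 40.7 CPM, -0.69 ± 0.18, adjusted p = 0.0212) and Tgfb1 rose (94.1, 94.4 and 61.7 against 209 and 118 CPM, 0.94 ± 0.21, adjusted p = 0.00514). The Tgfb1 call was lost without MCAO/R + WT mouse 1 (log2 0.49) and the Tgfb2 call without sham + WT mouse 3 or MCAO/R + WT mouse 2 (log2 -0.77 to -0.55). DESeq2 called Tgfb1 alone of these 3 (log2 -1.28 for Smad3 and -0.69 for Tgfb2). With clustering at resolution 1.0 none of the 3 was called (log2 -0.72 for Smad3, 0.68 for Tgfb1 and -0.61 for Tgfb2), and with unnamed clusters joined to the closest type the Smad3 and Tgfb1 calls were lost (-0.53 and 0.67). In vascular smooth muscle-like cells Tgfb2 was 2.06-fold lower in MCAO/R + Lrg1-/- than in MCAO/R + WT mice (95.0, 140 and 93.7 against 238 and 215 CPM, -1.04 ± 0.28, adjusted p = 0.0367, 12.7% of all genes called). This call was kept only without MCAO/R + Lrg1-/- mouse 2 (log2 -1.25 to -0.91). Cluster 6.0 held 93.3% of the MCAO/R + WT and 44.7% of the MCAO/R + Lrg1-/- cells of this type, and cluster 6.2 held 2.87% and 41.8%. Their part in the Tgfb2 call was not tested. In choroid plexus epithelium-like cells Smad3 was lower in Lrg1-/- mice after sham (9.5, 11.6 and 9.0 against 15.1, 27.5 and 18.3 CPM, -1.04 ± 0.27, adjusted p = 0.0136, 26.5% of all genes called) and after MCAO/R (-1.30 ± 0.33, adjusted p = 0.00985, 30.5% called), as was Tgfbr2 after MCAO/R (25.2, 36.6 and 33.8 against 75.2 and 61.7 CPM, -1.13 ± 0.25, adjusted p = 0.00534). The Smad3 call after sham was lost without sham + Lrg1-/- mouse 1 or sham + WT mouse 2 (log2 -1.21 to -0.73). After MCAO/R, the Smad3 call was lost without MCAO/R + WT mouse 2 (log2 -1.68 to -0.94). The Tgfbr2 call was lost without MCAO/R + WT mouse 1 (log2 -1.25 to -0.90). The type held 90 and 21 cells in MCAO/R + WT mice 1 and 2. In MCAO/R + Lrg1-/- mice 1, 2 and 5 it held 708, 1446 and 739 cells. MCAO/R + WT mouse 2 had 21 Smad3 and 35 Tgfbr2 UMIs. The clusters led by Prlr and by Htr2c held 12.6% and 13.5% of the MCAO/R + WT cells. In MCAO/R + Lrg1-/- mice they held 2.8% and 1.6%. The part of this difference in the calls was not tested.

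Eng and Acvrl1 were also called higher in Lrg1-/- mice in types where they are low. Acvrl1 measured 11.8 to 12.7 CPM in sham + WT and 24.8, 52.1 and 97.6 CPM in sham + Lrg1-/- vascular smooth muscle-like cells (2.24 ± 0.52, edgeR adjusted p = 0.0234, 14.1% of all genes called). In these cells the 5 endothelial genes named above summed to 163.5 to 314.1 CPM in sham + WT and 458.2 to 1622 CPM in sham + Lrg1-/- mice. In ciliated ependymal-like cells Acvrl1 (2.21 ± 0.54, adjusted p = 0.0374), Eng (1.98 ± 0.44, adjusted p = 0.0293) and Id1 (2.10 ± 0.44, adjusted p = 0.0242) were called higher after sham in Lrg1-/- mice, beside 6.09% of all genes, and the endothelial genes summed to 381.3 to 560.7 against 782.9 to 2415 CPM. The choroid plexus genes summed in the same ependymal-like cells to 373.4 to 4699 CPM in sham + WT and 25900 to 37170 CPM in sham + Lrg1-/- mice. In fibroblast-like cells Acvrl1 was higher in MCAO/R + Lrg1-/- than in MCAO/R + WT mice (45.2, 54.7 and 77.8 against 14.7 and 13.2 CPM, 2.11 ± 0.42, adjusted p = 0.0448, 0.947% of all genes called), with endothelial genes at 446.9 to 1207 against 178.6 to 372.1 CPM. The part of endothelial and choroid plexus transcripts in these calls was not tested. The smooth muscle call was kept only without sham + Lrg1-/- mouse 1 (log2 1.65 to 2.62), the ependymal calls only without sham + Lrg1-/- mouse 1 or 2 (log2 1.19 to 2.62 for Acvrl1, 1.36 to 2.37 for Eng and 1.38 to 2.48 for Id1), and the fibroblast call only without MCAO/R + Lrg1-/- mouse 2 (log2 1.86 to 2.23).

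In 4 types no member was called by edgeR. In astrocyte-like cells, 0 of 50 tests over 5 comparisons were called, with 9 at an unadjusted p under 0.05 and 0 calls by DESeq2, and 1.94%, 3.49%, 2.54%, 0.0956% and 0.00% of all genes were called in MCAO/R against sham in WT, Lrg1-/- against WT after MCAO/R and after sham, MCAO/R against sham in Lrg1-/- mice and the interaction. Neuroblast-like cells gave 0 of 18 (2 at an unadjusted p under 0.05, 1 call by DESeq2), with 0.00% of all genes called after MCAO/R in WT mice and 4.43% between genotypes after MCAO/R. B cell-like cells gave 0 of 16 (5 at an unadjusted p under 0.05, 1 call by DESeq2), with 1.12% of all genes called between genotypes after sham and 0.0151% after MCAO/R in Lrg1-/- mice. Neutrophil-like cells gave 0 of 9 (1 at an unadjusted p under 0.05, 0 calls by DESeq2), with 0.128% of all genes called between genotypes after MCAO/R.

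The rest of the pathway was read from lists of other ligands and latency genes, receptors, Smads and cofactors, inhibitors and targets, of which the genes above the count filter were tested. In endothelial-like cells, 20.6% of all genes were called after MCAO/R in WT and 20.9% in Lrg1-/- mice, and 26.0% between genotypes after MCAO/R. Of the list genes, 2 of 14 ligand and latency genes were called higher and 4 lower after MCAO/R in WT mice, and 4 higher and 3 lower in Lrg1-/- mice. Ltbp4, which stores latent TGF-β in the matrix, measured 348, 348 and 351 CPM in sham + WT and 65.9 and 91.2 CPM in MCAO/R + WT mice (-2.15 ± 0.22), with -2.24 ± 0.19 in Lrg1-/- mice. Ltbp4 was among the leading genes of the arterial cluster. That cluster held 8.91% of the sham + WT and 0.132% of the MCAO/R + WT cells. No Ltbp4 value without it is given here. Inhbb, an activin subunit, measured 1.27 to 1.97 CPM in sham + WT and 48.9 and 6.28 CPM in MCAO/R + WT mice (4.06 ± 0.70). Among 8 other receptors, 1 was called lower after MCAO/R in WT mice, the co-receptor Tgfbr3 (-0.55 ± 0.11), and 3 were lower in MCAO/R + Lrg1-/- than in MCAO/R + WT mice, including the BMP receptor Bmpr2 (-0.59 ± 0.10). Of 9 other Smads and cofactors, 1 was called higher and 1 lower in WT mice, Smad1 (0.54 ± 0.14) and Skil (-0.58 ± 0.12), and 1 higher and 2 lower in Lrg1-/- mice. Of 8 inhibitors, 1 was called higher and 3 lower in WT mice and 2 higher and 2 lower in Lrg1-/- mice. Fkbp1a, whose protein holds type I receptors inactive, measured 245 to 252 CPM in sham + WT, 799 and 472 in MCAO/R + WT, 225 to 241 in sham + Lrg1-/- and 620 to 1077 CPM in MCAO/R + Lrg1-/- mice (1.35 ± 0.22 and 1.83 ± 0.20). Bambi, a decoy receptor, was called lower in both genotypes (-0.50 ± 0.12 and -0.52 ± 0.12), as was the BMP antagonist Nog at 2.60 CPM or less in all mice, and Pmepa1 in WT mice (-0.83 ± 0.16). Lrrc32, which holds latent TGF-β at the cell surface, was called higher in both (1.48 ± 0.30 and 1.51 ± 0.30), and Ltbp1 lower in WT mice (-1.34 ± 0.32).

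Of 12 targets in endothelial-like cells, 3 were called higher and 1 lower after MCAO/R in WT mice and 5 higher and 3 lower in Lrg1-/- mice, beside 20.6% and 20.9% of all genes called. Ccn2, which encodes a matrix protein induced by TGF-β and by stretch, measured 47.7, 36.5 and 43.5 CPM in sham + WT and 366 and 419 CPM in MCAO/R + WT mice (3.21 ± 0.22), but 18.6 to 35.6 CPM in sham + Lrg1-/- and 41.8, 63.0 and 64.2 CPM in MCAO/R + Lrg1-/- mice (1.10 ± 0.21). The genotypes differed after MCAO/R by -2.79 ± 0.22. Among the endothelial clusters, Ccn2 was one of the leading genes of cluster 1.3. That cluster held 36.0% of the MCAO/R + WT and 6.3% of the MCAO/R + Lrg1-/- cells. No Ccn2 value without it is given here. Id3, a relative of Id1, measured 969 to 1052 CPM in sham + WT, 1070 and 1024 in MCAO/R + WT, 1219 to 1295 in sham + Lrg1-/- and 564, 861 and 633 CPM in MCAO/R + Lrg1-/- mice, and was called lower in the last group than in MCAO/R + WT (-0.61 ± 0.15) and sham + Lrg1-/- mice (-0.88 ± 0.14). The collagen genes Col4a1 and Col4a2 were called higher after MCAO/R in WT mice (1.08 ± 0.18 and 1.43 ± 0.18). In Lrg1-/- mice Col4a1 measured 359, 425 and 366 CPM after sham and 763, 998 and 662 CPM after MCAO/R. Col4a2 measured 192, 246 and 241 CPM after sham and 505, 681 and 436 CPM after MCAO/R in these mice. Hey1, a Notch and BMP target, was called lower in both genotypes (-1.02 ± 0.18 in WT and -0.77 ± 0.17 in Lrg1-/- mice). Hey1 was also among the arterial markers used for naming, and the share of the arterial cluster was lower after MCAO/R. No Hey1 value without that cluster is given here.

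In microglia-like cells, 7 of 13 targets were called higher and 0 lower after MCAO/R in WT mice and 5 higher and 1 lower in Lrg1-/- mice, where 21.8% and 36.3% of all genes were called. The targets Ccn2, Col4a1 and Col4a2, which rose in WT endothelial-like cells, were low here. Ccn2 measured 0.773 to 1.78 CPM in sham + WT and 8.96 and 6.35 CPM in MCAO/R + WT mice. Col4a1 measured 4.37 to 6.36 CPM and 21.4 and 11.3 CPM in the same groups. The part of endothelial transcripts in these counts was not tested. Id2 measured 115 to 179 CPM in sham + WT and 1142 and 579 CPM in MCAO/R + WT mice (2.47 ± 0.32), with 1.78 ± 0.29 in Lrg1-/- mice, and Fn1, which encodes fibronectin, differed by 2.02 ± 0.42 and 2.54 ± 0.44. Of 9 other receptors, 2 were called lower in WT and 3 in Lrg1-/- mice, with Bmpr2 at -0.62 ± 0.11 and -0.62 ± 0.10. Of 17 ligand and latency genes, 2 were called lower in WT mice, and 1 higher and 3 lower in Lrg1-/- mice. These were Ltbp4 (-1.73 ± 0.43) and Nrros, which presents latent TGF-β on microglia (-0.57 ± 0.14), in WT mice, and in Lrg1-/- mice included Ltbp4 (-1.84 ± 0.42) and, higher, Thbs1 (1.64 ± 0.45). Ltbp4 was also lower after MCAO/R in endothelial-like cells, where it was among the leading genes of the arterial cluster. The part of endothelial transcripts in its microglial calls was not tested. Of 7 inhibitors, 1 was called higher and 2 lower in each genotype. Fkbp1a was the higher one (0.69 ± 0.21 in WT and 0.90 ± 0.20 in Lrg1-/- mice), and the ubiquitin ligase Smurf1 was lower in both (-0.87 ± 0.14 and -0.88 ± 0.13), with Pmepa1 in WT (-0.83 ± 0.13) and Smurf2 in Lrg1-/- mice (-0.51 ± 0.13). In oligodendrocyte-like cells, 5 of 11 targets were called higher after MCAO/R in WT and 3 in Lrg1-/- mice (25.1% and 14.9% of all genes called), and Smad1, which carries BMP signals, was higher in both (1.48 ± 0.16 and 0.70 ± 0.18). Col4a1 was low in these cells too, at 5.99 to 7.65 CPM in sham + WT and 17.4 and 10.4 CPM in MCAO/R + WT mice. The part of endothelial transcripts in the target counts of oligodendrocyte-like cells was not tested.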

How the data were processed

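Right brain tissue of 11 mice was dissociated and sequenced by 10x scRNA-seq, 1 library per mouse. The authors aligned reads to mm10 with Cell Ranger and STAR (per the labels; the file headers name Cell Ranger 7.0.1) and deposited whole-number UMI counts per gene and barcode, not normalized. Cells with over 500 genes, over 1000 UMIs and under 25% mitochondrial UMIs were kept (132437 of 155804 barcodes), and in each library the 6% with the highest doublet scores were removed. Cells were clustered without the members and Lrg1, and clusters were named from fixed markers. Cell type names are therefore rebuilt here. UMIs were summed per mouse and type, for libraries with at least 20 cells of the type, and all groups of a type were fitted together in edgeR 4.0.16 (R 4.3.3) with TMM normalization, its filter on low counts and the quasi-likelihood F test. A type was tested where both groups had at least 2 libraries. P-values were adjusted over all genes of the type by Benjamini and Hochberg. The SE was derived from the log2 fold change and its F statistic.

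The 10 members, the gene lists and the rule for naming genes (all members, in full where called, and of each list in a comparison and type up to 4 called genes per direction with the largest change and no overlap between groups) were chosen with earlier results of these data known. Alternatives were DESeq2, other size factors, no count filter, a replicate block, fits of only the 2 groups, other cell filters and clustering, and each library left out. The joining of unnamed clusters, the removal of clusters mostly of 1 group and the removal of the arterial and the Spp1-led macrophage cluster were added after the data had been seen. The fit was also run on simulated counts with known fold changes, and that outcome is not reported here. The labels name no separate cultures or litters, so p-values measure the spread between these mice. Library totals of 37159497 to 171813031 UMIs set the counting precision, and low genes are known less exactly. The rule selected many more list genes than the text names: those named are examples, and the rest are given by their counts or are not reported here.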

Additional observations from a re-analysis of the deposited data

Results flagged for a closer look

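For the effect of MCAO/R between genotypes, the test of the difference itself called 2 of 89 member results, beside 2.32% of all genes. Both were in endothelial-like cells, and with a replicate block 0 were called. Id1 had a difference between the responses of Lrg1-/- and WT mice of -1.23 on the log2 scale (edgeR adjusted p = 0.0182), and Smad6 of -1.01 (adjusted p = 0.0232). Leaving out 1 library moved the values between -1.39 and -1.03 for Id1 and between -1.15 and -0.86 for Smad6. The Id1 call was lost without sham + WT mouse 1 or 2 or MCAO/R + WT mouse 2. The Smad6 call was lost without sham + Lrg1-/- mouse 2 or 5, any sham + WT mouse or MCAO/R + WT mouse 1.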

How the results depend on the processing

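Of the 72 member results called over all types and comparisons, 28 stayed called under every alternative run, 44 lost the call under at least 1, and 0 reversed. With RLE size factors 72 of 72 stayed called, and with DESeq2 70 (the 2 lost, Smad3 and Tgfb2, were both in pericyte-like cells). Without the arterial and the Spp1-led macrophage cluster, 70 stayed called. The count of called members between genotypes after MCAO/R was 19, and became 29 without the count filter (17 higher, 12 lower) and 8 when only the 2 groups were fitted. After sham it was 17 and became 34 without the count filter. The interaction called 2, against 6 without the count filter and 4 by DESeq2. With 1 library left out, the counts ran from 12 to 18 for MCAO/R against sham in WT (16 in all), from 15 to 21 in Lrg1-/- mice (18), from 5 to 25 between genotypes after MCAO/R (11 without MCAO/R + WT mouse 1, 5 without mouse 2), from 7 to 14 after sham (10, 7 and 9 without sham + WT mouse 1, 2 and 3, and 8 without sham + Lrg1-/- mouse 5), and from 0 to 4 for the interaction. The cause of these shifts was not tested, beyond the smaller number of mice. Where an arm kept 1 mouse, it was assumed to vary like the other groups.

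Replicate numbers are shared between groups in the labels. Over all genes tested in endothelial-like and microglia-like cells, same-numbered mice did not deviate together (correlations from -0.285 to 0.051). With so few mice per group, this cannot show whether the numbers pair the mice. With a replicate block, the counts were 13 and 17 for MCAO/R in WT and Lrg1-/- mice, 14 and 8 between genotypes after MCAO/R and sham, and 0 for the interaction (adjusted p = 0.0718 for Id1 and 0.103 for Smad6 in endothelial-like cells).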
